A study of Mus musculus with 18 samples.

Results

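The minor arms of 15 miRNA hairpins, from the miR-17~92 cluster and its paralogs miR-106a-363 and miR-106b~25, were followed on 9 miRNA arrays. A minor arm is the strand of a hairpin opposite the abundant guide strand, and a probe was taken for each such arm that the arrays name. This gave 15 of 1265 miRNA probes, 6 from miR-17~92, 6 from miR-106a-363 and 3 from miR-106b~25, and 13 probes for the guide arms of the same hairpins. The miR-17~92 probes are mmu-miR-17-3p, mmu-miR-18a-3p, mmu-miR-19a-5p, mmu-miR-20a-3p, mmu-miR-19b-1-5p and mmu-miR-92a-1-5p, those of miR-106a-363 are mmu-miR-106a-3p, mmu-miR-18b-3p, mmu-miR-20b-3p, mmu-miR-19b-2-5p, mmu-miR-92a-2-5p and mmu-miR-363-5p, and those of miR-106b~25 are mmu-miR-106b-3p, mmu-miR-93-3p and mmu-miR-25-5p. The prefix mmu, for mouse, is left out from here on. The RNA came from mouse splenic B cells taken with magnetic beads, and it was labelled with Cy5 and read in 1 colour. There were 3 arrays each of Tg79, Tg9 and WT. Tg79 and Tg9 are founder lines #79 and #9, which carry a miR-17~92 transgene driven in B cells by the Eµ enhancer and the IgH promoter, and WT are wild-type mice without it. Each line stands for 1 founder, and the labels name neither the species of the transgene's hairpins nor the age of the mice. They number the arrays but do not tie each one to its own mouse, so the p-values below measure the spread between these arrays.

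The nuclease Drosha frees a hairpin from its primary transcript and Dicer trims it to a duplex of both arms. One arm is kept in Argonaute as the guide and pairs with target mRNAs through its seed, bases 2 to 8, while the opposite arm is mostly degraded, so its level is usually low. The 3 clusters are paralogs with closely similar guide arms. miR-17~92 lies in a noncoding host gene, is known for driving B-cell proliferation and lymphoma in mice, and is needed for the survival of B-cell precursors, and miR-106b~25 lies in an intron of Mcm7.

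The mature sequences show why the minor arms tell the clusters apart more readily than the guide arms do. RefSeq (GRCm38.p6) held sequences for 13 of the 15 minor arms, and miR-19a-5p and miR-363-5p are given by name only. Seeds are in capitals, and the first pair are guide arms that differ by 1 base, shown against the minor arms of the paralogous hairpins.
miR-17-5p: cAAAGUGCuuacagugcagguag
miR-106a-5p: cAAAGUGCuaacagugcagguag
miR-17-3p: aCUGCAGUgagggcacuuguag
miR-106a-3p: aCUGCAGUgccagcacuucuuac
miR-20b-3p: aCUGCAGUgugagcacuucuag
miR-20a-3p: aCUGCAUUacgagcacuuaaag
miR-18a-3p: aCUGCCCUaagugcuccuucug
miR-18b-3p: uACUGCCCuaaaugccccuucu
miR-19b-1-5p: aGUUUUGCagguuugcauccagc
miR-19b-2-5p: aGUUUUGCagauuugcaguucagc
miR-92a-1-5p: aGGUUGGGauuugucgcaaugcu
miR-92a-2-5p: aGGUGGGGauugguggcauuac
miR-106b-3p: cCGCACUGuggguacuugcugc

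The 13 sequences fell into 10 seed groups. The seed CUGCAGU was shared by miR-17-3p, miR-106a-3p and miR-20b-3p, and GUUUUGC by miR-19b-1-5p and miR-19b-2-5p, while 8 members had a seed of their own. Counted as single-base edits, miR-17-3p and miR-106a-3p were 6 apart, miR-20a-3p and miR-20b-3p 5, miR-18a-3p and miR-18b-3p 4, and miR-92a-1-5p and miR-92a-2-5p 6. The closest such pair was miR-19b-1-5p and miR-19b-2-5p at 3 edits, and miR-17-3p and miR-20b-3p, which share a seed, were also 3 apart. The guide arms miR-20a-5p and miR-20b-5p were 2 edits apart, as were miR-18a-5p and miR-18b-5p. The hairpins of miR-19b-1 and miR-19b-2, like those of miR-92a-1 and miR-92a-2, give 1 and the same guide. Other guide pairs were farther apart: miR-17-5p was 3 edits from miR-93-5p and 5 from miR-106b-5p. The guide miR-92a-3p was 4 edits from miR-25-3p and 10 from miR-363-3p. The minor arm miR-17-3p was 8 edits from miR-93-3p and from miR-106b-3p. miR-17-3p lies at chr14:115043721-115043742 and miR-92a-1-5p at chr14:115044437-115044459, both on the plus strand. miR-106a-3p lies at chrX:52742505-52742527, miR-92a-2-5p at chrX:52741892-52741913 and miR-106b-3p at chr5:138165746-138165767, all on the minus strand.

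Each probe was first read against the negative control spots of its own array. The detection limit was the intensity that 95% of its 24 negative control spots did not exceed (the 95th percentile). It lay between 57.7 and 76.0 intensity units in Tg79, 46.8 and 57.2 in Tg9, and 53.4 and 72.9 in WT. The share of all miRNA probes above it was 24.4% to 32.3% in Tg79, 33% to 42.6% in Tg9 and 35.1% to 40.8% in WT, and the part of this lower share in the Tg79 results was not tested. All 5 miRNAs listed as lymphocyte markers were above the limit on all 9 arrays. The list holds both arms of miR-142, a pan-leukocyte miRNA, so it does not measure lymphocytes alone. The log2 of the summed intensity of the 5 miRNAs was 12.2 to 13.4 in Tg79, 12.98 to 13.8 in Tg9 and 13.3 to 14.1 in WT. They differed in direction: miR-150-5p averaged 10.62 ± 1.63 in Tg79 and 12.62 ± 0.44 in WT, and miR-155-5p 9.65 ± 1.40 in Tg79 and 8.12 ± 0.19 in WT (log2, SD, n = 3 each). The myeloid miRNA miR-223-3p spanned 6.21 to 6.69 in Tg79, 6.57 to 9.10 in Tg9 and 7.16 to 7.64 in WT, and was above the limit on all of them. The log2 of the summed intensity of 2 erythroid miRNAs was 7.39 to 8.32 in Tg79, 8.02 to 8.35 in Tg9 and 7.53 to 8.01 in WT. That of 3 endothelial and stromal miRNAs was 7.69 to 8.25 in Tg79, 7.67 to 7.80 in Tg9 and 7.63 to 7.68 in WT. Of these 3, 0 were above the limit on all 9 arrays. An offset of 50 was added to every probe before summing, so sums of dim probes say little about the RNA. Of the 2 erythroid miRNAs, miR-451a was above the limit on all 9 arrays and miR-144-3p on 0. The part of other cells in the results was not tested, and in bulk RNA fewer cells of a type and less RNA per cell cannot be told apart. The arrays lay on 3 slides, the first with all of Tg9 and WT1, the second with all of Tg79 and WT2, and the third with WT3.

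Of the 15 minor arms, 5 were above the limit on all 9 arrays, 6 on some and 4 on none. The 5 were miR-17-3p and miR-20a-3p of miR-17~92, miR-92a-2-5p and miR-363-5p of miR-106a-363, and miR-106b-3p of miR-106b~25. Of the minor arms 33.3% were above the limit on all 9 arrays and 26.7% on none, against 22.3% and 51.4% of all 1265 miRNA probes. Of the 13 guide arms, 12 were above it on all 9. The other, miR-363-3p, was above it on 6, while miR-363-5p, the arm taken here as minor, was above it on all 9. Which arm of this hairpin is the more abundant was not tested.

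Within miR-17~92, miR-17-3p was the minor arm farthest above its limit. Its intensity was 6.07, 13.6 and 12.9 times the limit in Tg79-1, Tg79-2 and Tg79-3, against 2.89, 3.30 and 2.73 times in WT1, WT2 and WT3. In Tg9 it was 8.05 times the limit in Tg9-1 and 3.60 and 3.25 times in Tg9-2 and Tg9-3. So its probe was above the limit without the transgene, and on this scale Tg9-1 lay within the range of Tg79 while the other Tg9 arrays lay near WT.

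miR-20a-3p, the minor arm of a hairpin farther downstream in the same cluster, was 1.62, 5.47 and 4.02 times the limit in Tg79, 2.18, 1.42 and 1.49 times in Tg9, and 1.15, 1.27 and 1.17 times in WT. Every WT array was thus only slightly above the limit. miR-18a-3p was above it on all 3 Tg79 arrays, at 1.25, 1.93 and 1.38 times, on all 3 Tg9 arrays, at 1.21, 1.01 and 1.16 times, and on 1 WT array, at 1.05, 0.885 and 0.929 times.

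The opposite arms of miR-19b-1 and miR-92a-1 were detected on fewer arrays. miR-19b-1-5p stood at 0.911, 1.53 and 1.68 times the limit in Tg79, 1.21, 0.989 and 1.01 times in Tg9, and 0.832, 1.00 and 0.830 times in WT. miR-92a-1-5p stood at 0.990, 1.55 and 1.5 times in Tg79, 1.05, 0.858 and 0.894 times in Tg9, and 0.791, 0.898 and 0.753 times in WT. Tg79-1, which had the highest limit of the 9 arrays, was the Tg79 array on which both missed it. miR-19a-5p was above the limit on 0 arrays, with 0.847 to 0.863 times in Tg79, 0.813 to 0.897 times in Tg9 and 0.741 to 0.886 times in WT.

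In miR-106a-363 the picture was split. miR-106a-3p and miR-19b-2-5p were not above the limit on any array, with miR-106a-3p at 0.787 to 0.832 times in Tg79, 0.816 to 0.957 times in Tg9 and 0.766 to 0.853 times in WT. miR-19b-2-5p stood at 0.735 to 0.803 times in Tg79, 0.849 to 0.881 times in Tg9 and 0.799 to 0.829 times in WT. miR-18b-3p was above it on 0 Tg79, 2 Tg9 and 0 WT arrays, and miR-20b-3p on 0 Tg79, 1 Tg9 and 1 WT array, with no value over 1.07 times. miR-92a-2-5p was above the limit on all 9 arrays, at 1.79, 1.93 and 1.75 times in Tg79, 2.05, 3.03 and 3.33 times in Tg9, and 3.46, 2.36 and 3.22 times in WT. miR-363-5p was also above it on all 9, at 1.02, 1.23 and 1.05 times in Tg79, 1.22, 1.45 and 1.48 times in Tg9, and 1.62, 1.24 and 1.48 times in WT. Both probes were therefore above the limit in WT, and how far they bind other RNA was not tested. Relative to the limit the Tg79 arrays lay below all WT arrays, whereas after normalisation between arrays, described next, the groups overlapped.

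In miR-106b~25, miR-106b-3p was 1.15, 1.19 and 1.24 times the limit in Tg79, 1.14, 1.33 and 1.31 times in Tg9, and 1.24, 1.26 and 1.04 times in WT. These ranges overlapped. miR-93-3p was above the limit on 0 arrays, at 0.866 to 0.998 times over the 9, and miR-25-5p on 0 Tg79, 1 Tg9 and 2 WT arrays, at 1.07 times at most.

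A stricter limit, the brightest negative control spot of each array, left miR-92a-2-5p, miR-20a-3p and miR-17-3p above it on all 9 arrays and miR-363-5p and miR-106b-3p on 8. It was passed by miR-18a-3p on 6, by miR-19b-1-5p on 3 and by miR-92a-1-5p on 2. For miR-20b-3p and miR-25-5p the number was 1, and for the other 5 members it was 0.

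**Figure D1:**
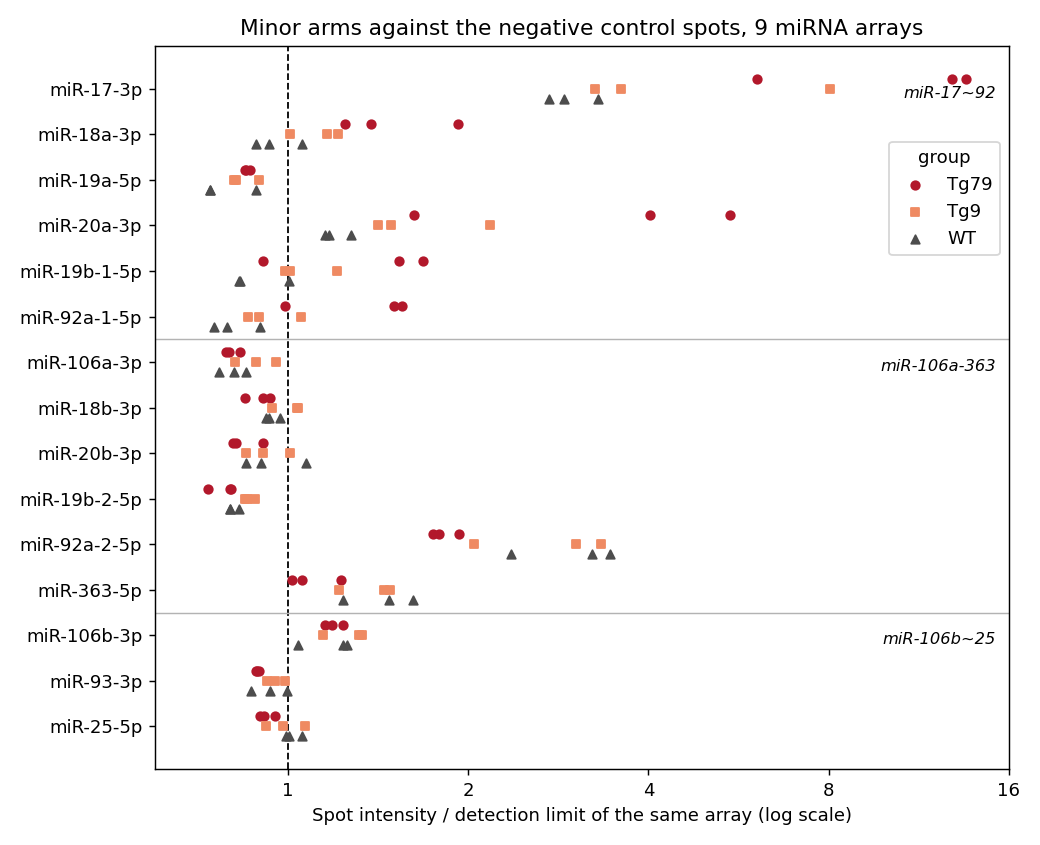
Spot intensity of the 15 minor arms divided by the detection limit of the same array (log axis), 1 point per array, for Tg79, Tg9 and WT. The dashed line is the limit; miR-17-3p, miR-20a-3p, miR-92a-2-5p, miR-363-5p and miR-106b-3p lie right of it on all 9 arrays, and miR-19a-5p, miR-106a-3p, miR-19b-2-5p and miR-93-3p on none.

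Groups were compared on log2 intensities after normexp correction and quantile normalisation, in 1 limma model over the 9 arrays, with Benjamini-Hochberg adjustment over the 501 probes that were above the limit on at least 3 arrays. Of the 15 members 9 were tested, namely 5 of miR-17~92, 2 of miR-106a-363 and 2 of miR-106b~25. A member such as miR-92a-1-5p was tested only because of its transgenic arrays, so the counts below describe the members and support nothing by themselves.

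In Tg79 against WT, 4 members passed an adjusted p of 0.05, all higher in Tg79 and all of miR-17~92 in this fit. They were miR-17-3p, miR-18a-3p, miR-20a-3p and miR-92a-1-5p, and 0 members were called lower. Of the 501 probes tested 4.59% were called, 3.59% higher and 0.998% lower. The median difference of the 5 tested miR-17~92 minor arms was 0.89 on the log2 scale, beside -0.04 over all probes tested, -0.05 for those of miR-106a-363 and 0.15 for those of miR-106b~25.

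miR-17-3p had the largest difference of the 9 in this fit, whereas with the authors' deposited values that of miR-20a-3p was larger, 2.63 against 2.17. The log2 levels of miR-17-3p were 9.17, 10.08 and 9.77 in Tg79 against 7.12, 7.56 and 7.21 in WT, with means of 9.67 ± 0.46 in Tg79 and 7.30 ± 0.24 in WT (SD, n = 3 each). The groups did not overlap, and the log2 difference was 2.38 ± 0.46 (SE, limma adjusted p = 0.0387).

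For miR-20a-3p the log2 levels were 7.18, 8.71 and 8.13 in Tg79 against 6.14, 6.36 and 6.23 in WT, with means of 8.01 ± 0.77 in Tg79 and 6.24 ± 0.11 in WT (SD, n = 3 each). Tg79-1 was the lowest Tg79 array, though still above every WT array. The log2 difference was 1.77 ± 0.39 (SE), at a limma adjusted p of 0.0499, just inside the threshold.

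miR-18a-3p had log2 levels of 6.73, 7.21 and 6.68 in Tg79 against 6.05, 5.91 and 6.0 in WT. All Tg79 arrays were above all WT arrays, with a log2 difference of 0.89 ± 0.16 (SE, limma adjusted p = 0.0387). miR-92a-1-5p had 6.32, 6.84 and 6.85 in Tg79 against 5.79, 5.92 and 5.78 in WT. The groups did not overlap, with a log2 difference of 0.84 ± 0.16 (SE, limma adjusted p = 0.0387). For miR-92a-1-5p 0 WT arrays and 2 Tg79 arrays were above the limit. Taking for WT the dimmest probe signal that was above the limit on each array, its mean was 1.54-fold higher in Tg79. The Tg79 mean includes Tg79-1, which was itself below its limit, so this is not a strict lower bound.

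miR-19b-1-5p did not pass, with log2 levels of 6.15, 6.80 and 7.02 in Tg79 against 5.84, 6.06 and 5.89 in WT. These groups did not overlap either, and the log2 difference was 0.73 ± 0.22 (SE, limma adjusted p = 0.0988). In all, 6 members lay higher in every Tg79 array than in every WT array, as did 13% of the probes tested, the sixth being miR-106b-3p, and 0 members lay lower in every array, against 16.4% of the probes tested.

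The members of the other clusters were not called. miR-92a-2-5p had log2 levels of 7.40, 7.22 and 7.07 in Tg79 against 7.36, 7.09 and 7.38 in WT, a difference of -0.05 ± 0.14 (SE, limma adjusted p = 0.884). The ranges overlapped. miR-363-5p had 6.36, 6.46 and 6.24 in Tg79 against 6.49, 6.30 and 6.45 in WT, a difference of -0.06 ± 0.08 (SE, limma adjusted p = 0.684). The ranges overlapped here as well, and this probe was only 1.02 to 1.62 times the limit over the 9 arrays. miR-106b-3p had 6.59, 6.40 and 6.49 in Tg79 against 6.20, 6.33 and 6.10 in WT, without overlap. Its difference was 0.28 ± 0.08 (SE, limma adjusted p = 0.0911). It passed the threshold with array quality weights (limma adjusted p = 0.0334), a fit that called 79 of the 501 probes, beside 23 here. This probe was only 1.04 to 1.33 times the limit over the 9 arrays. miR-25-5p differed by 0.01 ± 0.06 (SE, limma adjusted p = 0.963) at levels around the limit, where intensities say little about the RNA.

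The calls rested on few arrays. Leaving out Tg79-2, Tg9-3, WT1, WT2 or WT3 left 0 of the 4 members called, leaving out Tg79-3 left 1 and leaving out Tg9-2 left 2, while the log2 difference of miR-17-3p lay between 2.18 and 2.63 and that of miR-20a-3p between 1.41 and 2.18 whichever array was left out. Against WT2 alone, on the slide of Tg79, the log2 difference was 2.11 for miR-17-3p (1.61 to 2.52 over the 3 arrays), 1.65 for miR-20a-3p (0.83 to 2.36), 0.97 for miR-18a-3p (0.77 to 1.30), 0.74 for miR-92a-1-5p (0.39 to 0.92) and 0.60 for miR-19b-1-5p (0.10 to 0.97). With slide as a factor in the model the values were the same and 0 members were called (limma adjusted p = 0.53 for miR-17-3p).

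**Figure D2:**
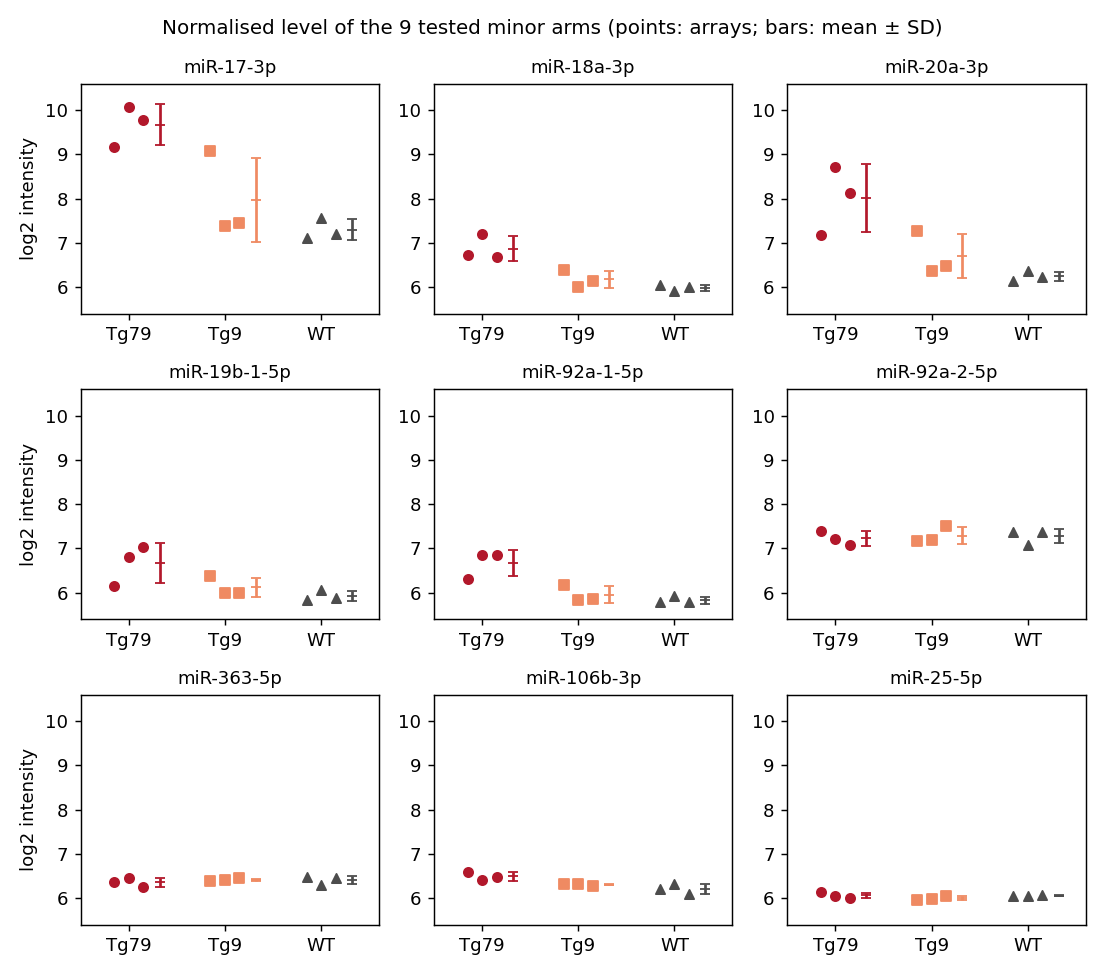
Quantile-normalised log2 intensity of the 9 tested minor arms, 1 point per array, with the mean ± SD of each group beside the points (n = 3). miR-17-3p, miR-18a-3p, miR-20a-3p, miR-19b-1-5p, miR-92a-1-5p and miR-106b-3p lie higher in every Tg79 array than in every WT array, and of the Tg9 arrays Tg9-1 is the highest for the first 5.

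In Tg9 against WT, 0 of the 9 tested members were called, as were 0% of the 501 probes. The unadjusted p was under 0.05 for 0 members and 3 probes in all, and the members' smallest limma adjusted p was 0.99. miR-17-3p had log2 levels of 9.07, 7.39 and 7.46 in Tg9 against 7.12, 7.56 and 7.21 in WT, a difference of 0.68 ± 0.46 (SE). Only Tg9-1 lay above the WT range, and without Tg9-1 the difference was 0.13. Without it the difference was also smaller for miR-20a-3p, at 0.18, miR-18a-3p, at 0.0923, miR-19b-1-5p, at 0.0654, and miR-92a-1-5p, at 0.0136.

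miR-20a-3p had 7.27, 6.37 and 6.47 in Tg9 against 6.14, 6.36 and 6.23 in WT, a difference of 0.47 ± 0.39 (SE). It was the 1 member whose Tg9 arrays were all above its WT arrays, beside 3.59% of the probes tested, although Tg9-2 exceeded WT2 by very little. Lower in every Tg9 array were 0 members, against 2% of the probes. For miR-18a-3p the difference was 0.20 ± 0.16 (SE), for miR-19b-1-5p 0.19 ± 0.22 and for miR-92a-1-5p 0.12 ± 0.16, and for each of the 3 Tg9-1 was the highest Tg9 array. miR-92a-2-5p differed by 0.02, miR-363-5p by 0.00, miR-106b-3p by 0.09 and miR-25-5p by -0.05, with overlapping ranges. Against WT1 alone, on the slide of Tg9, the log2 difference was 0.86 for miR-17-3p (0.27 to 1.95 over the 3 arrays) and 0.57 for miR-20a-3p (0.24 to 1.13).

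In Tg79 against Tg9, 0 of the 9 tested members were called (0% of the 501 probes). The unadjusted p was under 0.05 for 6 members and 77 probes, and the smallest limma adjusted p was 0.156, for miR-18a-3p and miR-92a-1-5p. The log2 difference was 1.70 ± 0.46 (SE) for miR-17-3p, 1.30 ± 0.39 for miR-20a-3p, 0.71 ± 0.16 for miR-92a-1-5p, 0.69 ± 0.16 for miR-18a-3p and 0.54 ± 0.22 for miR-19b-1-5p. All Tg79 arrays were above all Tg9 arrays for 4 members, miR-17-3p, miR-18a-3p, miR-92a-1-5p and miR-106b-3p, as for 8.98% of the probes tested, and all were below for 0 members, as for 10.4% of the probes. miR-92a-2-5p and miR-363-5p each differed by -0.06. The 2 lines lay on different slides, and line and slide cannot be told apart here without the WT arrays.

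With both lines averaged against WT, 0 members were called (0% of 501 probes). The difference was 1.53 ± 0.40 (SE) for miR-17-3p and 1.12 ± 0.34 for miR-20a-3p. The unadjusted p was under 0.05 for 6 members and 67 probes, and the smallest limma adjusted p was 0.19. The comparisons with WT share the WT arrays.

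The minor arms were then set beside the guide arms of their hairpins. Of the 13 guide arms, 9 were higher in Tg79 than in WT by the same test and 0 lower, with a median log2 difference of 2.44. Among them were 3 guides of miR-106a-363, namely miR-106a-5p at 2.86 ± 0.42 (SE), miR-20b-5p at 3.13 ± 0.48 and miR-18b-5p at 1.76 ± 0.34, each called by limma. The minor arms of those 3 hairpins, miR-106a-3p, miR-20b-3p and miR-18b-3p, were above the limit on 0 Tg79 arrays. Also called was miR-93-5p of miR-106b~25, at 1.05 ± 0.21 (SE), whose minor arm miR-93-3p was above the limit on 0 arrays. The other guides of that cluster, miR-106b-5p at 0.16 and miR-25-3p at -0.01, were not called.

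**Figure D3:**
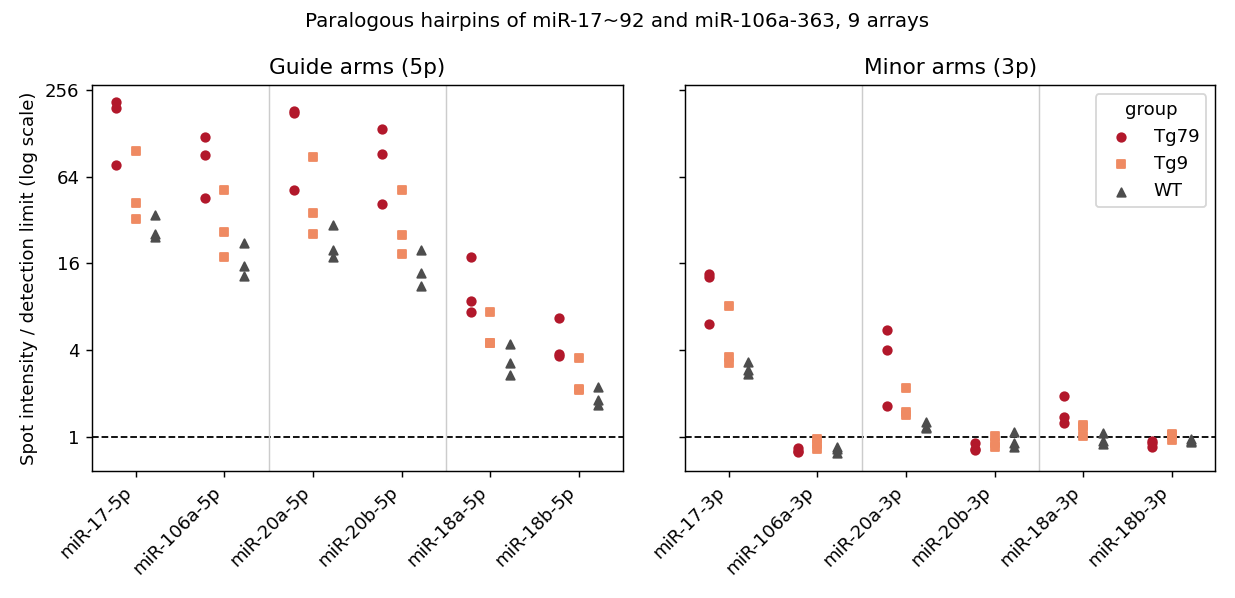
Spot intensity over the detection limit (log axis) for guide arms on the left and minor arms on the right of 3 pairs of paralogous hairpins, 1 point per array, with the limit dashed. The guide arms of both clusters are above the limit on all 9 arrays, while miR-106a-3p, miR-20b-3p and miR-18b-3p are at or below about 1 times the limit in all groups.

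The guide arm of miR-106a was 45.4, 120 and 90.5 times the limit in Tg79, 51.6, 26.6 and 17.9 times in Tg9, and 15.5, 22.1 and 13 times in WT. All Tg79 arrays were above all WT arrays at this probe, whose target differs from miR-17-5p by 1 base, while the opposite arm of the hairpin was above the limit on 0 of 9 arrays. How far each guide or minor arm probe binds its paralog was not tested.

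For each hairpin the difference of the guide arm was set against that of the minor arm, by the log2 guide value minus the log2 minor value on each array. In Tg79 against WT the difference of the guide arm exceeded that of the minor arm in 6 of 9 hairpins without overlap of the groups, by 0.53 for miR-17, 1.16 for miR-20a, 1.45 for miR-18a, 1.61 for miR-92a-1, 1.71 for miR-19b-1 and 2.49 for miR-92a-2. Each had the smallest p that 3 arrays against 3 allow, 0.1 in an exact two-sided permutation test, or 0.225 after adjustment over 18 tests. For miR-363, miR-106b and miR-25 the difference was 0.12, -0.13 and -0.01 (exact permutation p = 0.8, 0.6 and 0.9). The offset of 50 added to the intensities flattens differences of dim probes, among them most minor arms. The minor arms of miR-18a, miR-19b-1 and miR-92a-1 were above the limit on only 1, 1 and 0 WT arrays. Their WT levels lay around the floor, which shrinks their differences, so these gaps cannot compare the arms. With an offset of 16 the gap was 0.27 for miR-17 and 0.56 for miR-20a (exact permutation p = 0.2 for both), and 2.62 for miR-92a-2. The guides miR-92a-3p and miR-19b-3p are each a product of 2 hairpins, and miR-92a-3p enters the gaps of both miR-92a-1 and miR-92a-2.

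In Tg9 against WT the difference between arms was 0.50 for miR-17 and 0.78 for miR-20a, both without overlap (exact permutation p = 0.1), and it overlapped for the other 7. Among those were 0.53 for miR-18a and 0.80 for miR-19b-1. Without Tg9-1 the difference was 0.21 for miR-17 and 0.24 for miR-20a.

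**Figure D4:**
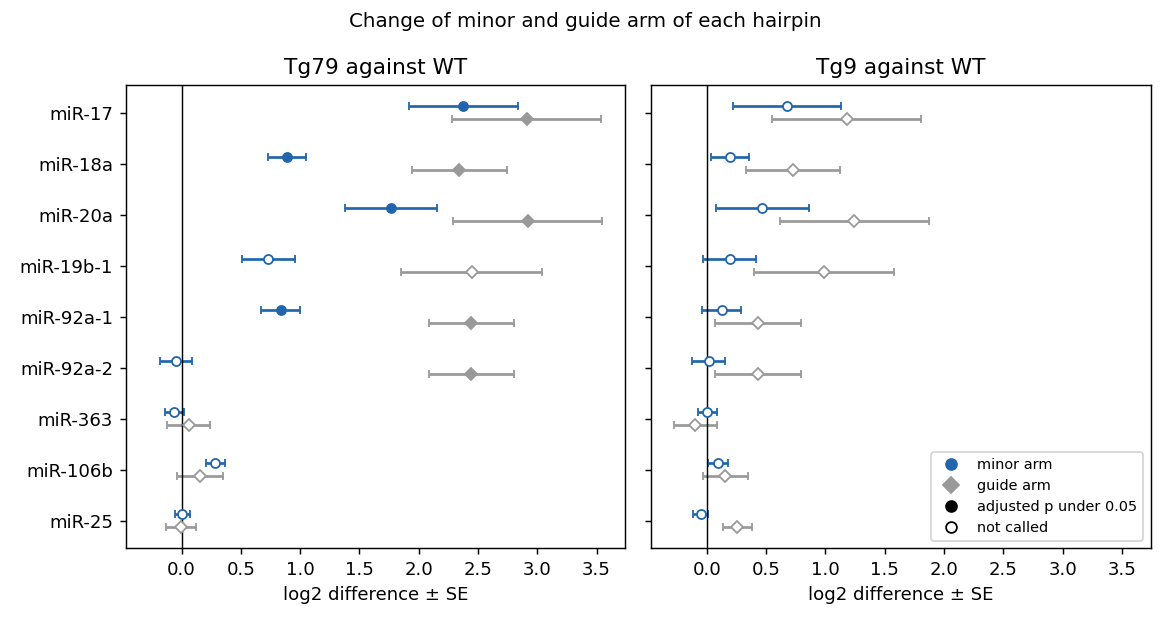
Log2 difference ± SE from limma for the minor arm and the guide arm of each of 9 hairpins, in Tg79 against WT (left) and Tg9 against WT (right), filled where the adjusted p was under 0.05. In Tg79 the minor arms of miR-17, miR-18a, miR-20a and miR-92a-1 are filled, and in Tg9 no point is; miR-92a-1 and miR-92a-2 share 1 guide probe.

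Likeness of pattern over the 9 arrays is given as a description, since the arrays share their groups and slides. Among 281 other probes above the limit on all 9 arrays, the most like miR-17-3p were miR-20b-5p (Pearson r = 0.992), miR-106a-5p (0.988) and miR-19a-3p (0.987). For miR-20a-3p they were miR-19a-3p (0.983), miR-92b-3p (0.977) and miR-92a-3p (0.966), of which miR-92b-3p belongs to none of the 3 clusters and is 3 edits from miR-92a-3p.

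For the members of the other clusters the most similar probes lay outside the 3 clusters. The most like miR-92a-2-5p were miR-6538 (0.974), miR-5109 (0.96) and miR-6351 (0.946). Those for miR-363-5p were miR-3474 (0.912), miR-5134-3p (0.863) and miR-2861 (0.846), and those for miR-106b-3p were miR-5621-3p (0.952), miR-421-3p (0.924) and miR-151-5p (0.923).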

How the data were processed

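The deposited scanner files hold 1 spot intensity per miRNA probe, not normalised, and a background column that moves with the spot (Pearson r 0.9764 to 0.9939 across spots), so it was not subtracted. The authors' deposited log2 table, whose processing the labels do not describe, was used as an alternative only. Its identifiers had to be moved by 5 rows to match the scanner values. It holds 5 of the members. The mRNA arrays were not used here.

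In R 4.3.3 with limma 3.58.1, intensities were corrected by normexp on the foreground with an offset of 50, taken to log2 and quantile normalised. 1 probe with a quality mark was left out. Probes above the 95th percentile of 24 negative control spots on at least 3 of 9 arrays were tested in a model of 3 group means, and a call needed a Benjamini-Hochberg adjusted p under 0.05. The fit was run on simulated data with less spread than these arrays have, as a check of the code only, which gives no support to the calls. Arrays give no counts, and their number limits the precision. No 2 arrays were identical. Every tested member is named, and likeness is by Pearson r, with the 3 most like probes given for members above the limit on all 9 arrays. The labels do not say whether replicate numbers pair arrays, and the main fit had no such block. Deviations of arrays with the same number correlated at -0.427 to 0.377. The members, marker lists and tests were chosen with earlier results of these data known. Alternatives covered background, scaling, filter, model, slide and single arrays.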

Additional observations from a re-analysis of the deposited data

How the results depend on the processing

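In Tg79 against WT the 5 tested miR-17~92 minor arms stayed higher under each alternative that gave them a value, except for 3 of them with the background column, but the calls did not hold. The authors' values and the filter on all 9 arrays gave a value for miR-17-3p and miR-20a-3p only, and the highest negative control spot as limit gave none for miR-92a-1-5p. Of the 4 calls in Tg79 against WT, 2 were left with the authors' values, with a filter on all 9 arrays, with the limit at the highest negative control spot, with only the 2 groups compared, and without both Tg9-2 and Tg9-3. There were 0 with the background column, with no filter, with the replicate block and with slide as a factor, and 0 to 3 when single arrays were left out. In the fit with the replicate block the limma adjusted p of miR-17-3p was 0.101 at the same difference of 2.38. The labels do not say whether the replicate numbers pair the arrays. Scaling to the 75th percentile of probes above the limit on all 9 arrays, chosen after seeing the data like the fit without both Tg9 arrays and the offset of 16, gave 7 calls, adding miR-19b-1-5p, miR-106b-3p and miR-25-5p, among 185 probes and moved the median of all probes to 0.48. The authors' values moved that median to -0.88, with 99 calls in 398 probes, and relative to it miR-20a-3p was at 3.51, miR-17-3p at 3.06, miR-106b-3p at 1.02, miR-92a-2-5p at -0.11 and miR-363-5p at -0.15. There were 6 calls with array quality weights, adding miR-19b-1-5p and miR-106b-3p, among 79 of 501 probes called, beside 23 in the main fit. Trend and robust moderation gave 5, adding miR-19b-1-5p, among 32 of 501. In Tg79 against Tg9, where the count was 0, there was 1 with that percentile scaling, among 9 probes called. Slide as a random block (correlation -0.144) gave 4, among 34 probes. Leaving out single arrays gave 0 to 1, the 1 being without Tg9-1, among 8 probes. Both lines against WT gave 4 with array quality weights, among 35 probes. Tg9 against WT gave 0 throughout.

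Signs that turned are given as log2 differences. With the background column, Tg79 against WT was -0.0601 for miR-17-3p, -0.00955 for miR-19b-1-5p, -0.00549 for miR-92a-1-5p and -0.00592 for miR-106b-3p. Tg9 against WT was then -0.00248 for miR-18a-3p, -0.0154 for miR-19b-1-5p, -0.00073 for miR-92a-1-5p, -0.00417 for miR-92a-2-5p and -0.0111 for miR-106b-3p, and Tg79 against Tg9 was -1.07 for miR-17-3p, -0.22 for miR-20a-3p and -0.00477 for miR-92a-1-5p. Differences near 0 also turned. In Tg79 against WT, miR-92a-2-5p was 0.12 with percentile scaling of detected probes, 0.14 with slide as a factor and -0.14 to 0.033 without single arrays. The authors' values gave it -0.99, and scaling to the 75th percentile -0.39. miR-363-5p was 0.42 with percentile scaling of detected probes, 0.0496 with slide as a factor and -1.03 with the authors' values, and miR-25-5p -0.0266 to 0.0309 without single arrays. In Tg9 against WT, miR-92a-2-5p was -0.19 with the authors' values, -0.14 with 75th percentile scaling, -0.0606 with cyclic loess, -0.0678 with percentile scaling of detected probes, -0.0724 with slide as a factor, -0.0827 with array weights, -0.12 without both Tg9 arrays and -0.0963 to 0.0806 without single arrays. miR-363-5p was -0.32 with the authors' values, -0.0316 with 75th percentile scaling, -0.0132 with cyclic loess, -0.0698 with slide as a factor, -0.0398 with array weights, -0.0186 without both Tg9 arrays and -0.0528 to 0.0374 without single arrays. miR-25-5p was 0.0323 with 75th percentile scaling and 0.11 with that of detected probes.

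Of the guide-minus-minor differences, miR-17 in Tg79 was -0.12, miR-92a-2 in Tg79 -2.36, miR-106b in Tg79 2.16, miR-20a in Tg9 -0.15 and miR-363 in Tg9 0.0234 with the background column, and miR-20a in Tg79 was -0.0791 with the authors' values. miR-363 in Tg9 was 0.00641 with either percentile scaling. miR-106b in Tg9 was -0.0974 with either percentile scaling, -0.00707 with an offset of 16 and -0.0168 without both Tg9 arrays. Without single arrays, miR-92a-2 in Tg9 lay between -0.0041 and 0.82, miR-363 in Tg79 between -0.00556 and 0.28 and in Tg9 between -0.20 and 0.0232, and miR-106b in Tg79 between -0.29 and 0.00672 and in Tg9 between -0.0592 and 0.20. The cause of these changes was not tested. Probes near the negative control spots carry little information on size. Near them were the members not above the limit on all 9 arrays. So were miR-363-5p (1.02 to 1.62 times the limit), miR-106b-3p (1.04 to 1.33) and, in WT, miR-20a-3p (1.15 to 1.27).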
